A study of Mus musculus with 13 samples.

Results

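The 10 genes described here build or steer the actin filaments that move the meiotic spindle of the mouse oocyte: the nucleators Fmn2, Spire1 and Spire2, the vesicle factors Myo5b and Rab11a, the Arp2/3 complex subunits Actr2, Actr3 and Arpc2, and the small GTPases Cdc42 and Rac1. They were chosen by name for their role, with earlier results of these data known, and all 10 were found among the 18939 genes of the count tables and in the FPKM table. Each of 13 libraries came from 1 oocyte: 3 SN GV, 3 NSN GV, 4 SN-MII and 3 NSN-MII oocytes. SN and NSN name germinal vesicle (GV) oocytes whose nucleolus is, or is not, surrounded by condensed chromatin, and SN-MII and NSN-MII oocytes are metaphase II eggs that matured in culture from each type. The oocytes of all 4 groups came from C57BL/6 females of 3 to 4 weeks, 48 h after PMSG, a hormone that stimulates follicle growth. All were injected with FBL–GFP mRNA, which marks the nucleolus, and were sorted into types by its pattern after 6 h in Cilostamide, a phosphodiesterase inhibitor that holds the GV stage (10 μM). No uninjected oocyte was sequenced, and the labels do not say which oocytes shared a mother, so p-values measure the spread between these oocytes.

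The oocyte spindle forms near the centre of the cell and is carried to the cortex before the first polar body is extruded. Fmn2, a formin, and the Spire proteins nucleate together the cytoplasmic actin network that does this, and Rab11a vesicles with the motor Myo5b carry the nucleators and set the density of the network. The Arp2/3 complex nucleates the branched actin of the cortical cap and holds the spindle there, downstream of Cdc42 and Rac1.

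Total counts per library were between 7140416 and 8846287. All 10 oocyte markers (Zp1 to Zp3, Gdf9, Bmp15 and others) were present, with a summed level of 16810 to 23690 CPM (counts scaled to the size of the library, with TMM normalization). The 14 cumulus and granulosa cell markers summed to 44.9 to 81.38 CPM in GV and 93.41 to 173.3 CPM in MII libraries. Most of this was Cyp19a1, at 37.85 to 157.7 CPM. Kitl had 13 to 113 counts in every library. In their highest library, Cyp11a1 had 46, Has2 38, Inha 37, Star 23, Fshr 19, Ptgs2 17 and Inhba 11 counts. Foxl2 and Ptx3 had 0 counts, and Amh, Amhr2 and Tnfaip6 at most 3, in every library. The part of such cells in the results below was not tested. Genes detected numbered 11593 to 13342, and were fewest in NSN-MII oocyte 3. cDNA was primed on poly(A) tails, and values are relative to the other mRNAs of the same oocyte, so a change in mRNA amount, in tail length and in the rest of the transcriptome cannot be told apart.

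By the GENCODE M21 annotation of GRCm38 (mm10), Fmn2 lies on chromosome 1 (174501825 to 174822729, plus strand) and Spire2 on chromosome 8 (123332713 to 123369515, plus strand). Rab11a lies on chromosome 9 (64715299 to 64737758, minus strand) and Actr2 on chromosome 11 (20062304 to 20112913, minus strand). Actr3 and Arpc2 are on chromosome 1 (125392905 to 125435727, minus strand, and 74236084 to 74268209, plus strand), Cdc42 is on chromosome 4 (137319696 to 137357720, minus strand) and Rac1 on chromosome 5 (143503634 to 143528036, minus strand). Because cDNA was primed on poly(A) tails, the annotated 3′ ends of some members are shown, from the transcript strand and 5′ to 3′. Each is the end of the gene's longest coding transcript with a complete end, and whether that transcript was present was not tested. For Rab11a this transcript has 2336 bases, more than the lengths computed for it below. All are 3′ UTR sequence. Capitals mark the AATAAA signal for cleavage and polyadenylation, or TTTTAT, the core of the element that CPEB proteins bind to lengthen tails during maturation. The stretch of Fmn2 ends in another AATAAA, left in lower case.

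Fmn2, chr1:174822697-174822726, plus strand: aatttatatgaaAATAAAatgaataataaa
Arpc2, chr1:74268174-74268203, plus strand: gttggggtcattAATAAAgaaaatctttct
Actr2, chr11:20062310-20062339, minus strand: tttaattaagaaAATAAAtaagatttttca
Rab11a signal, chr9:64715307-64715336, minus strand: catcctcatcctAATAAAcagttacagggg
Rab11a TTTTAT, chr9:64715371-64715398, minus strand: ctactttgtaTTTTATgcatgctctgta

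In the last 100 bases of each gene's longest coding transcript with a complete end, on the transcript strand, AATAAA or ATTAAA was found in 8 of the 10 members and in 82.08% of the 10740 genes tested between stages whose 3′ UTR fills this window. TTTTAT was found in Spire1 and Rab11a, 2 of the 10, and in 15.42% of those genes. Among genes that rose between GV and MII it was present in 22.11%, and among genes that fell in 8.779%. TTTTAT can overlap with ATTAAA but not with AATAAA. A hexamer in this window is a description of the letters only.

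Per length, Rab11a was the most abundant of the 10 mRNAs in both stages, at a mean of 569.5 FPKM (fragments scaled by transcript length and library size) in the 6 GV and 294.9 FPKM in the 7 MII libraries. At GV, Cdc42 (136.3 FPKM), Myo5b (112.1), Arpc2 (96.99), Spire1 (74.14) and Actr3 (48.24) followed, each overlapping its neighbour in this order. Rac1 (35.34 FPKM) stood below Actr3 and above the last 3, with no overlap on either side. Fmn2 (11.61 FPKM), Spire2 (10.13) and Actr2 (9.26) were the lowest and overlapped. At MII, Arpc2 (194.9 FPKM) and Spire1 (170.8) came before Cdc42 (159.3) and Myo5b (125.7), although the ranges of neighbours overlapped from Rab11a down to Rac1 (46.24). Fmn2 (31.6 FPKM), Actr2 (16.73) and Spire2 (0.2929) then followed with no overlap. The rank of Rab11a depends on the transcript length used for it in each library, which is described below. In CPM, with no scaling by length, the mean of Rab11a was 382.2 at GV, beside 375.6 for Myo5b. At MII it was 371.6 CPM, below Spire1 at 715.2 CPM.

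**Figure D1:**
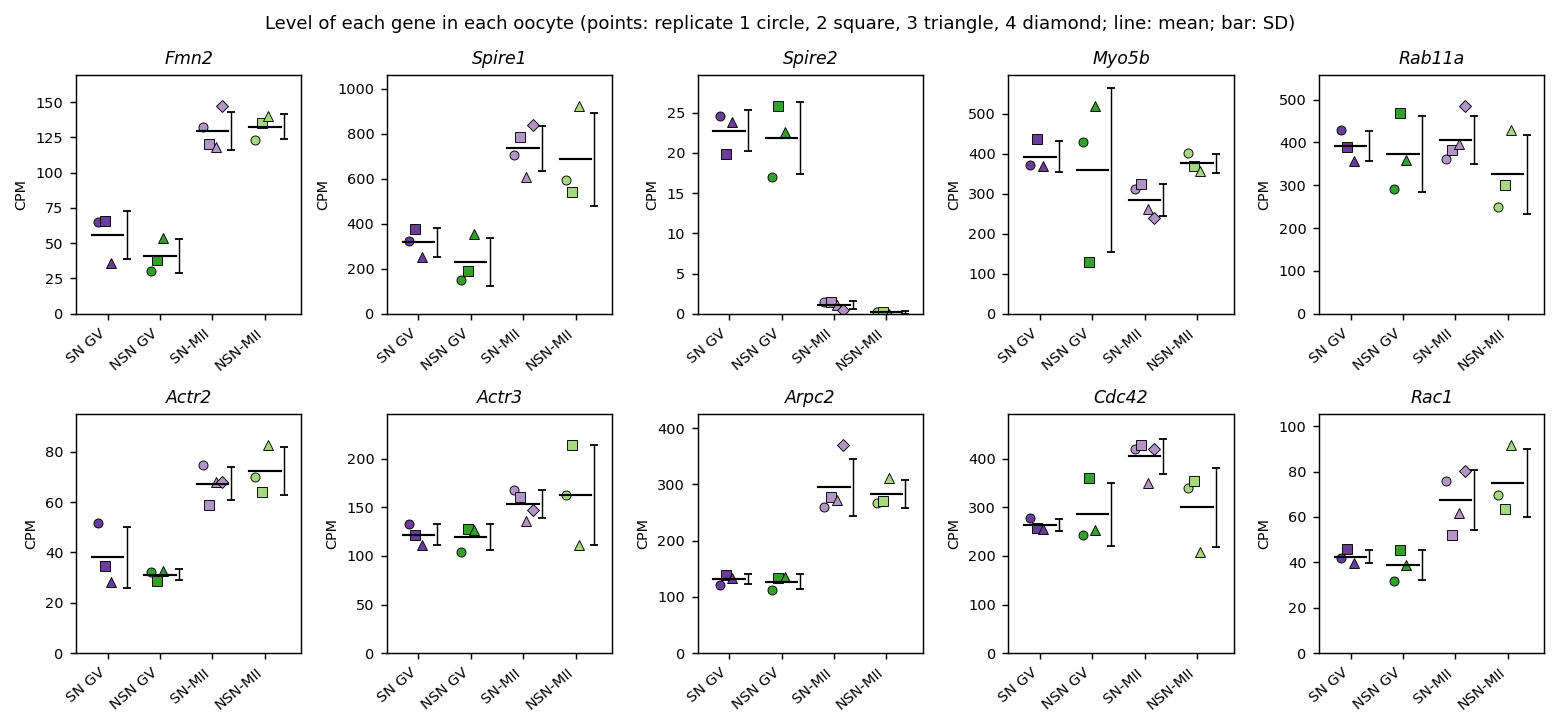
Level of the 10 genes in CPM (y axis, from 0) in each of the 13 single oocytes, by group (x axis). Points are oocytes, with a marker for each replicate number, lines are group means and bars 1 SD; Fmn2, Spire1, Actr2, Arpc2 and Rac1 are higher in each MII oocyte than in any GV oocyte, and Spire2 is lower, at 1.46 CPM or less.

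The first question was how these mRNAs differ between GV oocytes and oocytes that had matured to MII. Of the 10 genes, 6 rose after TMM scaling: Fmn2, Spire1, Actr2, Actr3, Arpc2 and Rac1, by 1.31 to 2.75-fold. TMM factors were 1.056 to 1.26 in GV and 0.7985 to 1.007 in MII libraries, so these folds are not changes in the share of total counts. Spire2 fell to a few counts or none. Cdc42, at 1.27-fold, missed the threshold, and the counts of Myo5b and Rab11a were not called either. By edgeR's quasi-likelihood test over all 13 libraries, 7 of the 10 members passed an adjusted p of 0.05 (Benjamini-Hochberg), which is near the 68.5% of all 11375 genes tested that did. Of the members, 6 were called higher and 1 lower, beside 31.7% and 36.8% of all genes. The libraries of the stages did not overlap for 6 members, beside 47.4% of all genes. The median log2 fold change was 0.60 over the members and −0.10 over all genes.

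Fmn2 was measured at 65.04, 65.65 and 36.04 CPM in the SN GV oocytes and at 30.38, 38.09 and 54.01 CPM in the NSN GV oocytes. It reached 132.6, 120.4, 118.2 and 147.5 CPM in the SN-MII oocytes and 122.9, 135.3 and 140.0 CPM in the NSN-MII oocytes. The lowest MII oocyte was thus above the highest GV oocyte, and the MII oocytes were less spread than the GV oocytes. The log2 fold change, MII over GV, was 1.46 ± 0.18 (SE; edgeR's quasi-likelihood test, adjusted p = 1.97e-06). It was 1.22 in SN and 1.70 in NSN oocytes, both called, and the difference between them was 0.48 (95% interval −0.26 to 1.22), which was not called.

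Spire1 (chromosome 18) gathers actin monomers into a seed that Fmn2 extends. It was measured at 323.5, 378.9 and 251.0 CPM in SN GV and 151.0, 190.5 and 353.4 CPM in NSN GV oocytes. It was at 705.7, 788.2, 610.1 and 840.8 CPM in SN-MII and 594.5, 541.4 and 925.4 CPM in NSN-MII oocytes. Each MII value was above all GV values. The third NSN oocyte was the highest of its group at both stages, although the labels do not say whether replicate numbers link oocytes. The log2 fold change was 1.39 ± 0.20 (SE; edgeR, adjusted p = 1.309e-05).

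Spire2, the second Spire gene of the mouse, moved the other way. It had 162 to 207 counts in each GV oocyte, 11, 11, 8 and 3 counts in the SN-MII oocytes and 2, 2 and 0 counts in the NSN-MII oocytes. In CPM this was 24.61, 19.87 and 23.83 in SN GV, 17.03, 25.85 and 22.64 in NSN GV, 1.46, 1.413, 1.052 and 0.409 in SN-MII and 0.2381, 0.2474 and 0 in NSN-MII oocytes. The stages were far apart and the GV groups overlapped. Mean CPM was 21.02-fold lower in SN-MII than in SN GV oocytes. Against a floor of 3 counts per library, Spire2 was at least 53.1-fold lower in NSN-MII than in NSN GV oocytes, and this floor covers counting error only. The fall was called over both types (edgeR, adjusted p = 1.439e-09) and in each type.

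The balance of the Spire mRNAs moved with this. Per length, Spire1 exceeded Spire2 by 4.407 to 11.48 times in the GV oocytes and by 277.0 to 1178 times in the SN-MII oocytes. The ratio was 1273 and 1453 in the NSN-MII oocytes in which Spire2 was above 0. The log2 ratio, with 0.1 added to each FPKM, was 2.81 ± 0.52 (SD, n = 6) at GV and 9.07 ± 1.11 (SD, n = 7) at MII. The difference of 6.26 had a p of 0.001166 by an exact two-sided permutation test, the smallest that 6 against 7 libraries allow. The adjusted p was 0.003497 over the 3 ratios compared. Spire1 rose and Spire2 fell with no overlap between stages, so this p was fixed by those changes and adds nothing to them.

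Actr2, which with Actr3 forms the seed of a branch, was measured at 51.65, 34.54 and 28.26 CPM in SN GV and 32.27, 28.73 and 32.51 CPM in NSN GV oocytes. It was at 74.71, 59.09, 67.96 and 68.02 CPM in SN-MII and 69.88, 64.21 and 82.75 CPM in NSN-MII oocytes. No MII oocyte was as low as the highest GV oocyte. Actr2 rose by 1.02 ± 0.17 on the log2 scale (SE; edgeR, adjusted p = 4.741e-05).

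Arpc2 encodes a subunit that clamps the complex to the mother filament, and its rise had the smallest standard error among the members. It was at 121.7, 139.0 and 133.4 CPM in SN GV, 111.7, 132.9 and 136.1 in NSN GV, 259.8, 277.2, 272.5 and 370.2 in SN-MII and 266.4, 271.1 and 311.9 CPM in NSN-MII oocytes. The stages did not overlap, and the fourth SN-MII oocyte stood above the other three of its group. Its log2 fold change was 1.16 ± 0.13 (SE; edgeR, adjusted p = 8.028e-07), at 1.17 in SN and 1.16 in NSN oocytes.

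Actr3, the partner of Actr2, was at 133.0, 121.1 and 111.2 CPM in SN GV, 103.9, 127.3 and 126.5 in NSN GV, 168.4, 160.9, 136.2 and 147.1 in SN-MII and 163.1, 214.3 and 111.3 CPM in NSN-MII oocytes. Apart from the third NSN-MII oocyte, each MII oocyte was above all GV oocytes. Its rise of 0.39 ± 0.15 on the log2 scale was called (SE; edgeR, adjusted p = 0.03238) but was lost in 12 of 21 alternatives, among them each of 7 fits that left out 1 library (SN GV 2 or 3, NSN GV 1, SN-MII 1 or 2, NSN-MII 1 or 2; adjusted p from 0.0552 to 0.126) and limma on FPKM (adjusted p = 0.185). Without the third NSN-MII oocyte the change in NSN oocytes alone went from 0.45 (adjusted p = 0.0964) to 0.64 (edgeR, adjusted p = 0.00903). The estimated counts of Actr3 and Rac1 were not whole numbers in 13 and 12 of the libraries, as RSEM gives where it shares reads out between gene copies, so their levels are less certain.

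Actr2 and Actr3 enter the complex in equal numbers, and their mRNAs were not equal. Actr2 stood at 0.155 to 0.2605 of the FPKM of Actr3 at GV and at 0.1972 to 0.4696 at MII, so the ranges overlapped. The log2 ratio rose by 0.63 between the stages (exact two-sided permutation test, p = 0.006993, adjusted over the 3 ratios 0.01049).

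Rac1, which activates Arp2/3 through the WAVE complex, was at 42.08, 45.66 and 39.75 CPM in SN GV and 31.96, 45.46 and 38.96 CPM in NSN GV oocytes. It was at 75.91, 52.02, 61.65 and 80.43 CPM in SN-MII and 69.76, 63.47 and 91.7 CPM in NSN-MII oocytes, with no overlap between stages. The log2 fold change was 0.81 ± 0.17 (SE; edgeR, adjusted p = 0.0003815). In SN oocytes alone it was 0.67 (adjusted p = 0.01977), and this call was lost in fits without SN GV library 1 or 3 or SN-MII library 1 or 4 (adjusted p from 0.0515 to 0.0732). By limma on log2(FPKM + 1) the value in SN oocytes was 0.22 and not called (adjusted p = 0.281).

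Cdc42, which activates N-WASP and is needed for cortical polarity, was at 279.1, 257.8 and 255.8 CPM in SN GV and 243.2, 360.1 and 253.2 CPM in NSN GV oocytes. It was at 421.3, 428.6, 351.1 and 419.6 CPM in SN-MII and 339.2, 354.0 and 207.2 CPM in NSN-MII oocytes. The SN-MII oocytes lay above the SN GV oocytes, while the NSN groups overlapped and the third NSN-MII oocyte was the lowest of all 13. The change over both types was 0.34 ± 0.15 (SE; edgeR, adjusted p = 0.05283) and passed without the third NSN-MII (0.43, adjusted p = 0.00445) or the second NSN GV library (0.45, adjusted p = 0.0129). It was 0.62 in SN oocytes (adjusted p = 0.01897), a call lost without SN GV library 2 (adjusted p = 0.0584) or 3 (adjusted p = 0.0632) and by limma on log2(FPKM + 1) (0.42, adjusted p = 0.128). It was 0.07 in NSN oocytes (adjusted p = 0.7987). The difference between the types, −0.54 (95% interval −1.18 to 0.10), was not called (adjusted p = 0.9996). The log2 ratio of Cdc42 to Rac1 differed by −0.21 between stages (exact two-sided permutation test, p = 0.3811).

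Myo5b (chromosome 18), the motor of Rab11a vesicles, was at 372.0, 437.1 and 368.2 CPM in SN GV, 428.4, 128.3 and 519.7 in NSN GV, 312.2, 324.2, 260.7 and 239.9 in SN-MII and 402.4, 368.9 and 356.0 CPM in NSN-MII oocytes. The second NSN GV oocyte was the lowest and the third the highest of all 13. The change between stages was −0.20 (95% interval −0.68 to 0.28; edgeR, adjusted p = 0.4532). Without the second NSN GV library it was −0.40 and called (edgeR, adjusted p = 0.0108). The change in SN oocytes alone, −0.47 with libraries apart, went from an adjusted p of 0.2149 to 0.0227 when that NSN oocyte left the shared estimate of spread. By limma on log2(FPKM + 1) the change over both types was 0.26 (adjusted p = 0.323), so its sign was not settled.

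**Figure D2:**
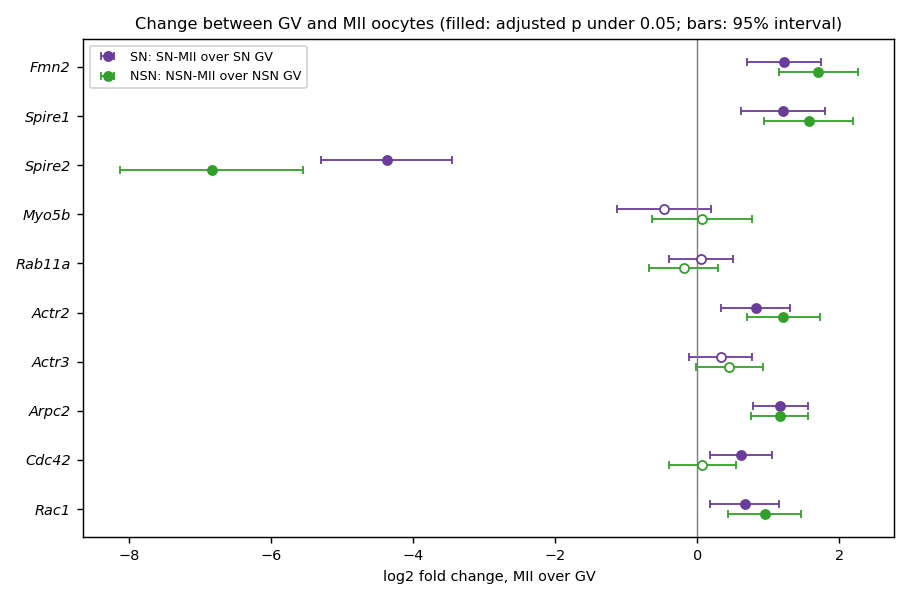
Log2 fold change between GV and MII (x axis) for the 10 genes (y axis), in SN (purple) and NSN (green) oocytes, from 1 edgeR fit of all libraries. Bars are 95% intervals and filled points passed an adjusted p of 0.05; Spire2 stands alone below 0 among the filled points, and its NSN value is a fitted value against a group at the floor.

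Rab11a, the GTPase of recycling vesicles, gave different answers in the deposited tables. Its counts overlapped between the stages, at 428.9, 388.2 and 357.4 CPM in SN GV, 291.4, 468.4 and 358.6 in NSN GV, 360.3, 381.5, 395.7 and 485.6 in SN-MII and 248.9, 301.0 and 428.3 CPM in NSN-MII oocytes. The log2 fold change was −0.07 (95% interval −0.40 to 0.26; edgeR, adjusted p = 0.7001). Its FPKM values were 596.5, 529.3 and 560.7 in SN GV, 486.7, 684.3 and 559.4 in NSN GV, 283.8, 348.7, 364.2 and 400.0 in SN-MII and 173.5, 226.4 and 267.8 in NSN-MII oocytes, and did not overlap. On the log2(FPKM + 1) scale the fall was 1.04 (limma, adjusted p = 5.609e-06), where 70.4% of genes were called. It was 0.69 in SN (adjusted p = 0.003546; 58.3% of genes called) and 1.38 in NSN oocytes (limma, adjusted p = 2.731e-05; 60.0%).

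Counts and FPKM differ by how the libraries are scaled and by the gene length that RSEM assigns in each library, which follows the mix of transcripts it estimates. This implied length was computed, after these values had been seen, from the count and FPKM of each gene and scaled to bases with 328 genes that have 1 annotated transcript of at least 1000 bases. For Rab11a it was 686.3, 708.4 and 660.1 bases in SN GV, 680.3, 645.4 and 615.6 in NSN GV, 1143, 1003, 975.6 and 1006 in SN-MII and 1421, 1287 and 1270 bases in NSN-MII oocytes. The stages did not overlap, and neither did the MII groups. The implied length rose by 0.81 on the log2 scale (95% interval 0.71 to 0.91; limma, adjusted p = 2.446e-06), where 14.0% of the 6452 genes tested were called, and 1.736% of them differed by as much or more. It rose by 0.59 in SN (8.08% of genes called) and by 1.03 in NSN oocytes (8.31%; limma, adjusted p = 0.0002981 and 1.523e-05). The 9 annotated Rab11a transcripts run from 397 to 2336 bases. Which transcripts were present was not tested.

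NSN-MII and SN-MII oocytes differed in the implied length of Rab11a by 0.36 on the log2 scale (95% interval 0.22 to 0.50; limma, adjusted p = 0.05432), where 0.31% of genes were called. With each library scaled to its median gene instead, the scaling tried first, it was 0.37 and called (limma, adjusted p = 0.0362), and so it was without the first SN-MII library (0.41, adjusted p = 0.0189). The call thus depended on the scaling. At GV the difference was −0.08 (adjusted p = 0.9998), and the interaction of 0.45 was not called (limma, adjusted p = 0.3193; 0.0155% of genes called).

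Myo5b went the other way in implied length, from 2673 to 3774 bases at GV to 1847 to 2628 bases at MII, with no overlap (−0.50, limma, adjusted p = 0.007796). Rac1 lengthened by 0.25 (adjusted p = 0.03647, lost in 9 of 13 fits without 1 library). The called changes of Cdc42 and Spire1 were 0.03 each, and both were lost under scaling to the median gene. That of Spire1 was also lost in 9 of 13 fits without 1 library and with the replicate block (limma, adjusted p = 0.103). Fmn2, Actr2, Actr3 and Arpc2 were not called, and Spire2 was too low at MII for a value.

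**Figure D3:**
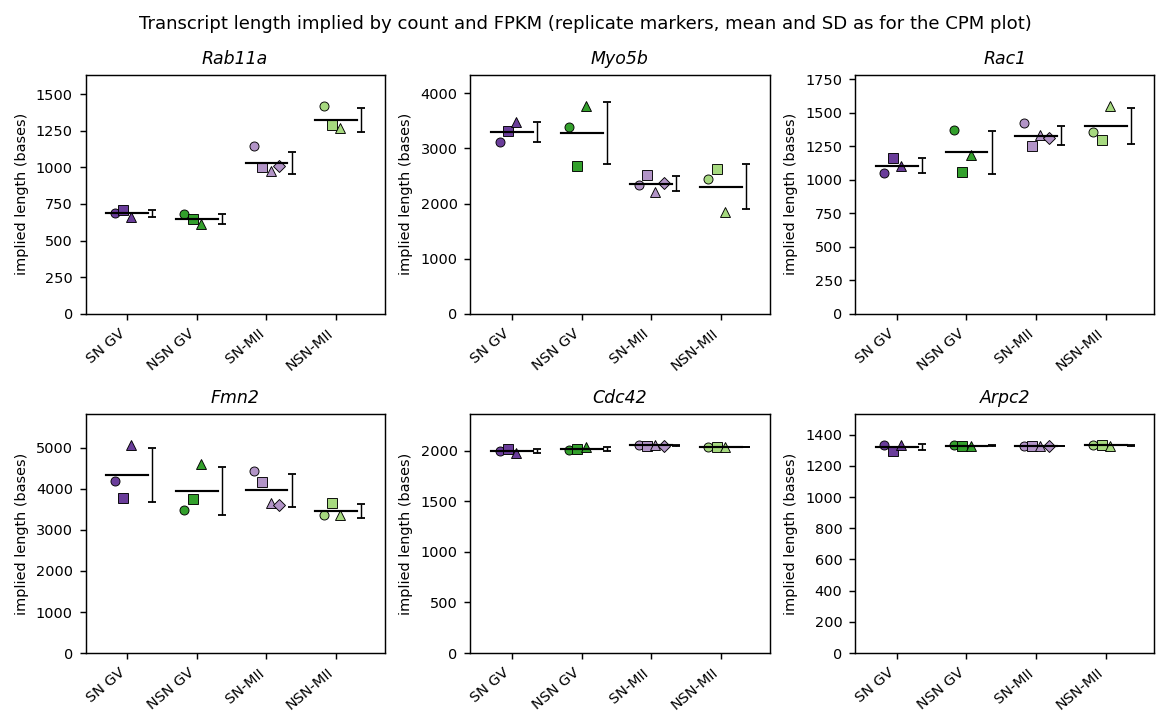
Transcript length implied by count and FPKM (bases, y axis from 0) for 6 of the genes in each oocyte, by group (x axis), with group means and SD. Rab11a lies between 615.6 and 708.4 bases in GV oocytes and between 975.6 and 1421 bases in MII oocytes, while Cdc42 and Arpc2 hardly move.

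The second question was whether NSN and SN oocytes differ in these genes before maturation. At GV no member was called, and the libraries of the types overlapped for all 10 members. By edgeR's quasi-likelihood test 0 of the 10 passed, as did 0% of the 10839 genes tested, while an unadjusted p under 0.05 was reached by 0 members and 1.69% of genes. DESeq2 and limma on log2(FPKM + 1) called 0 members as well. The libraries of the types stood apart for 6.03% of all genes.

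The differences farthest from 0 were those of Spire1 and Fmn2, and neither was called. Spire1 was −0.45 (95% interval −1.10 to 0.20) and Fmn2 −0.43 (95% interval −1.08 to 0.22) in NSN against SN GV oocytes on the log2 scale. Actr2 was −0.26 (95% interval −0.88 to 0.35), and the other 7 lay between −0.12 and 0.12. These intervals leave room for changes of more than 1.5-fold in Fmn2, Spire1, Spire2, Myo5b, Actr2 and Rac1.

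The third question was whether the eggs that mature from the types differ. Of 9 members tested by edgeR, 0 were called between NSN-MII and SN-MII oocytes, and 0 by DESeq2 or limma, where edgeR called 0.279% of 10028 genes and limma on log2(FPKM + 1) 0.0174%. At an unadjusted p under 0.05 there was 1 member by edgeR, Myo5b, beside 9.39% of genes. By limma on log2(FPKM + 1) the members under 0.05 were Myo5b, Rab11a and Spire2. The share of all genes under this threshold was not computed for limma, so these members have no background to stand beside. The libraries did not overlap for 1 of the 9 members tested, Myo5b, beside 10.2% of the genes tested. Those of Spire2 did not overlap either, but it was not tested and so has no part in that share.

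Myo5b was at 356.0 to 402.4 CPM in NSN-MII and 239.9 to 324.2 CPM in SN-MII oocytes, a log2 difference of 0.40 (95% interval 0.06 to 0.74; edgeR, adjusted p = 0.4088; adjusted p from 0.137 to 0.803 over the alternatives). Spire2 was lower in all 3 NSN-MII oocytes, with at most 2 counts, than in any SN-MII oocyte, with 3 to 11 counts, and was too low for the edgeR test. By limma on log2(FPKM + 1) it differed by −0.43 (adjusted p = 0.476). Cdc42 differed by −0.43 (95% interval −0.86 to 0.0039; adjusted p = 0.5343), and the value was −0.22 when the third NSN-MII oocyte was left out. Rab11a differed by −0.32 in count (95% interval −0.73 to 0.09; adjusted p = 0.6565). The other 6 lay between −0.11 and 0.15, and for Fmn2 the interval was −0.30 to 0.37.

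The test of whether the types changed differently during maturation called 0 of the 10 members by edgeR, DESeq2 or limma on log2(FPKM + 1), and 0.0176% of 11375 genes by edgeR and 0.00868% by limma. At an unadjusted p under 0.05 there was 1 member, Spire2, beside 5.3% of genes. Its interaction was −2.46 (edgeR, adjusted p = 0.6234), a fitted value that rests on the NSN-MII group at the floor. Within SN oocytes 7 members were called between stages, 6 higher and 1 lower, beside 56.3% of genes (25.1% higher, 31.2% lower), and 9 did not overlap, beside 63.4%. Within NSN oocytes it was 6, all of them also among those 7, 5 higher and 1 lower, beside 56.1% (25.4% higher, 30.7% lower). Here 6 did not overlap, beside 60.9%. The stages were measured in different oocytes, and the MII groups hold only oocytes that matured. The paper reports a lower rate of first polar body extrusion for NSN than for SN oocytes. A change during maturation and a difference in which oocytes matured therefore cannot be told apart.

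**Figure D4:**
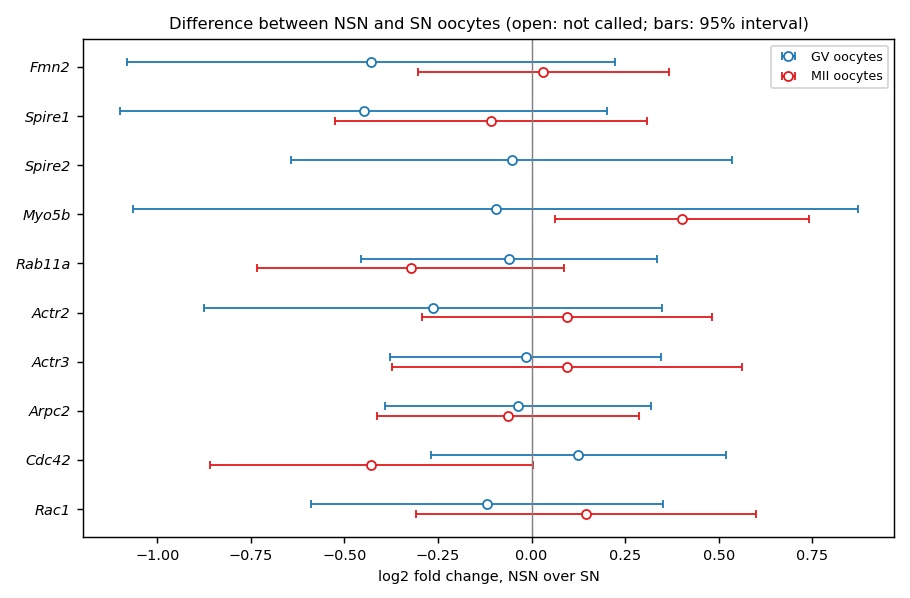
Log2 fold change of NSN over SN oocytes (x axis) for each gene (y axis) at GV (blue) and at MII (red), with 95% intervals from edgeR fits within each stage. All points are open, none having passed an adjusted p of 0.05; Spire2 has no MII value, and Myo5b at MII is the one interval that lies above 0.

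Other genes of these pathways were taken from lists. Between the stages 31.7% of all genes were called higher and 36.8% lower, and the counts of each list below stand beside these shares. Of the 10 Arp2/3 subunits in the tables, 3 rose, and these were the members, while Arpc1a, Arpc3, Arpc5 and Arpc5l fell, which are shares near those of all genes. Arpc1a, part of the scaffold that binds activators, went from 31.35 to 66.12 CPM (median 38.59) in the 6 GV oocytes to 1.091 to 3.712 CPM (median 1.798) in the 7 MII oocytes. Its fall of 4.23 on the log2 scale was the largest of the complex (SE 0.31; edgeR, adjusted p = 4.779e-09), and it had 8 to 30 counts at MII. Its paralog Arpc1b, with 37.44 to 100.8 CPM at GV and 38.33 to 102.5 CPM at MII, was not called (0.43, adjusted p = 0.144; its counts were not whole). Arpc3 was −1.65, Arpc5 −0.81 and Arpc5l −0.78, all called.

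Among 16 tested activators of the complex, 8 rose and 3 fell, beside 31.7% and 36.8% of all genes. Wasl, which encodes N-WASP, the effector of Cdc42, had the largest rise, from 65.44 to 183.2 CPM (median 145.8) to 361.8 to 555.9 CPM (median 441.2), a log2 fold change of 1.66 (edgeR, adjusted p = 1.448e-06). Nck1, an adaptor that clusters N-WASP, had the largest fall, from 73.28 to 95.92 CPM to 5.742 to 11.68 CPM (−3.33, adjusted p = 4.034e-10).

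Of 8 tested formins other than Fmn2, 4 rose and 1 fell, beside the same shares of all genes. Fhod3 went from 44.57 to 84.81 CPM to 123.4 to 232.4 CPM (1.39, edgeR, adjusted p = 4.864e-07). Fmnl3 fell from 74.44 to 221.0 CPM to 19.49 to 57.5 CPM (−1.92, adjusted p = 7.828e-06). So Fmn2 was 1 of 5 formins that rose.

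Of 10 genes of Rab11 vesicles and class V myosins, 1 rose and 4 fell, with a median of −0.65, and the share that fell is near the 36.8% of all genes. Rab11fip4, a Rab11 effector, rose from 14.11 to 32.0 CPM to 64.42 to 115.0 CPM (1.76, edgeR, adjusted p = 1.170e-06). Rab25, a close relative of Rab11a, had 26 to 99 counts in GV oocytes, 0 to 4 in SN-MII and 0 in NSN-MII oocytes, where it was at least 19.4-fold lower than in NSN GV oocytes.

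Of 6 tested myosin II genes, Myh14 was the one called over both types, at 23 to 50 counts in GV and 0 to 9 in MII oocytes (−2.84, adjusted p = 0.0009659).

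Of 30 tested actins and genes of filament turnover, 14 fell, 7 rose and 9 were not called, with a median of −0.67. Tmod3, which caps the slow end of filaments, had the largest rise, from 40.59 to 52.28 CPM to 64.76 to 124.0 CPM (1.02, edgeR, adjusted p = 5.011e-05). Tpm2, a tropomyosin, had the largest fall, from 3 to 35 counts to 0 or 1, and was at least 8.57-fold lower in NSN-MII than in NSN GV oocytes and at least 1.83-fold lower in SN-MII than in SN GV oocytes.

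Between the types of MII oocytes, where 0.279% of all genes were called, 1 of 29 tested genes of actin and filament turnover was called by edgeR and 0 of the 5 to 15 tested in each of the other lists above. This was Cfl1, cofilin 1, which severs and depolymerizes filaments. It was at 237.5 to 366.3 CPM (median 266.0) in SN-MII and 85.79 to 135.2 CPM (median 120.4) in NSN-MII oocytes, with no overlap, and at 489.5 to 699.7 CPM in GV oocytes. The log2 difference of NSN-MII to SN-MII was −1.31 ± 0.21 (SE; edgeR, adjusted p = 0.03479). The call was lost in fits without SN-MII library 2, 3 or 4 or NSN-MII library 1 or 2 (adjusted p from 0.0958 to 0.145) and by limma on log2(FPKM + 1) (adjusted p = 0.191), and DESeq2 made it (adjusted p = 4.47e-06). At GV the difference was −0.06, and the interaction of −1.24 was not called (edgeR, adjusted p = 0.307).

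**Figure D5:**
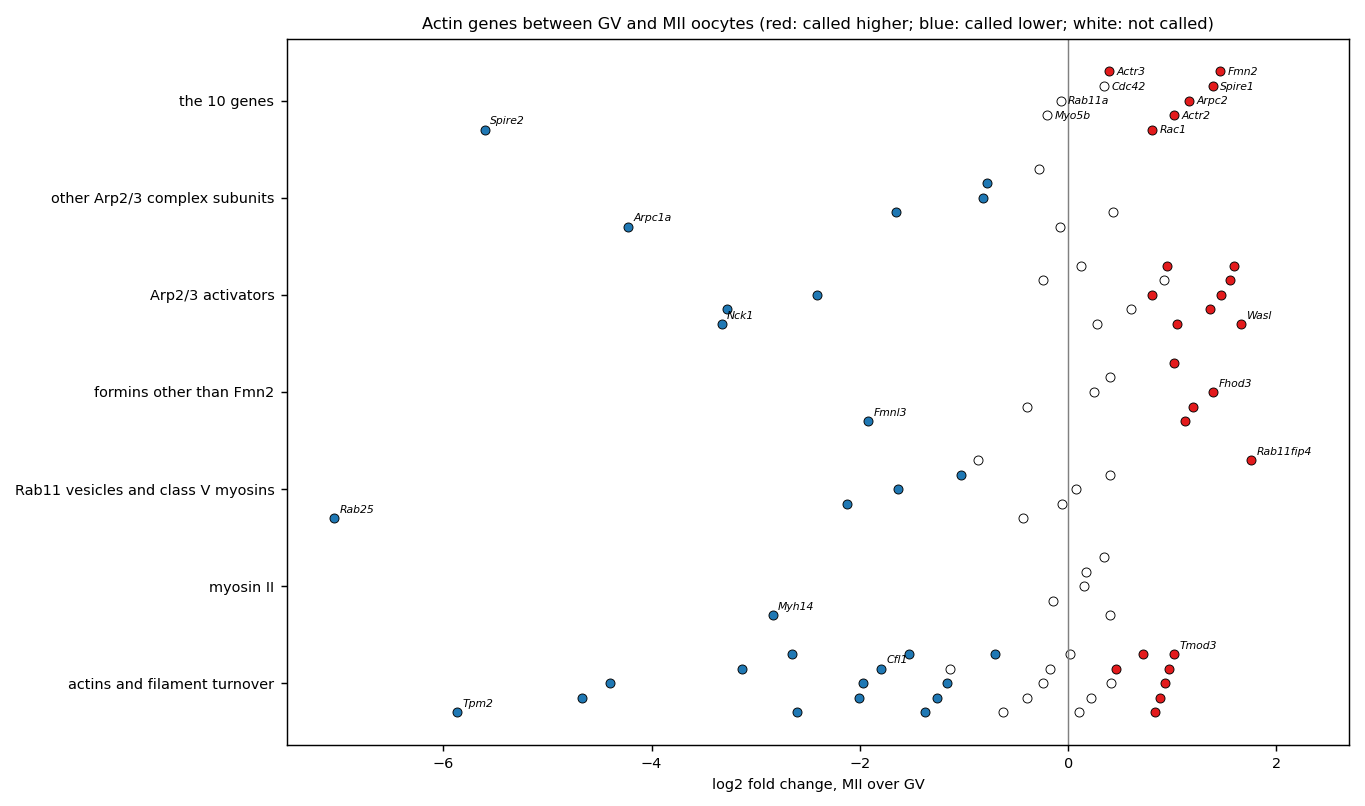
Log2 fold change between GV and MII (x axis) of the 10 genes and of each tested gene of the 6 lists (y axis), by edgeR over all libraries. Each point is a gene, red called higher, blue called lower and white not called, and the vertical offset within a list only separates points; the Arp2/3 subunits outside the 10 genes lie at or left of 0 except Arpc1b.

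Genes whose profile was most like that of Fmn2 were sought over the 13 libraries among 11524 genes, by the root mean square difference of centred log2(FPKM + 1). They were Srrm1 (0.1727), Gatad2b (0.1762) and Bmp2k (0.1802), against a median of 1.003 over all genes. For Spire2 they were Gm47233 (0.1916), Snupn (0.1972) and Ccdc105 (0.2097), against a median of 1.531. Among the 10 members, Fmn2 and Spire1 were nearest to each other (0.3284), as were Actr2 and Arpc2 (0.2766), and Actr3 and Cdc42 (0.2315). Spire2 had no near member, with Rab11a the closest at 1.098, and the fall of Rab11a between stages was called in FPKM but not in counts.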

How the data were processed

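Single-oocyte SMART-seq2 libraries were grouped by the deposited labels. Per the submitters' processing notes, the authors trimmed reads with Trim Galore 0.4.4, aligned them to mm10 with Bowtie2 2.3.5 and quantified genes with RSEM 1.2.28. The authors deposited expected counts, 1 table per stage, and FPKM values for all libraries, and RSEM shares out reads that fit several genes. The expected counts were rounded, filtered with filterByExpr, scaled by TMM and tested in edgeR 4.0.16 (R 4.3.3; quasi-likelihood, robust, Benjamini-Hochberg over all genes tested). The robust option was chosen after results without it had been seen. Types were compared within a stage, and stages and the interaction in 1 fit of 13 libraries. Alternatives were limma 3.58.1 with a trend, for genes averaging 1 FPKM or more after log2(FPKM + 1), and DESeq2 1.42.0. SE and 95% intervals came from the F statistic for edgeR and from limma's own standard errors for limma. A group with at most 3 counts in each library was at the floor. The common biological coefficient of variation was 0.352 at GV, 0.344 at MII and 0.364 over all libraries. No pair of libraries of a group agreed within counting error (chi-square per degree of freedom 10.17 to 67.17). GENCODE M21 (GRCm38) holds 18887 of the symbols and gave coordinates and sequences. The edgeR comparisons of types, of stages and of the interaction, and 1 limma comparison of stages, were run on simulated data. The other steps, among them the ratios, the implied length and DESeq2, were not.

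The members and lists were chosen with earlier results of these data known. Besides the members, the text names in each list the called genes with the largest rise and fall between stages whose libraries did not overlap, genes called between types, and genes most like Fmn2 and Spire2. Arpc1b, Arpc3, Arpc5 and Arpc5l were named after their values were seen. One of the lists is not reported here. The implied length was added after the data were seen, for 6452 genes with at least 20 counts and an FPKM of at least 1 in each library. Raw reads were not analysed here.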

Additional observations from a re-analysis of the deposited data

Results flagged for a closer look

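Within the 4 SN-MII oocytes, 1 oocyte stood apart by Dixon's test in 3 of the 22 groups of values examined, and chance gives such a gap in about 1 of 20 groups. Arpc2 was highest in the fourth oocyte, at 370.2 CPM. Cdc42 was lowest in the third, at 351.1 CPM. The log2 ratio of Spire1 to Spire2 was highest in the fourth, at 9.50, where Spire2 had 3 counts.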

How the results depend on the processing

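The 59 log2 fold changes of the members were recomputed under the alternatives, which gave 1134 values: 1095 kept their direction and their side of the threshold or were called in neither fit, 25 lost a call, 11 gained 1 and 3 reversed. Changes of sign that were called in neither fit, 48 in number, are among the first. The reversed values were those of Rab11a between SN-MII and SN GV oocytes, −0.69, −0.70 and −0.69 by limma on FPKM (with a pseudocount of 1, of 0.1, and with no filter) against 0.05 in counts. FPKM differs from counts in gene length and in library scaling, and the implied length of Rab11a changed by 0.59 there. The log2 ratio of Cdc42 to Rac1 turned to 0.19 in SN libraries alone. Within SN and NSN libraries alone, the ratio of Actr2 to Actr3 differed by 0.52 and 0.74 and that of Spire1 to Spire2 by 5.36 and 7.38, and so few libraries cannot reach an adjusted p of 0.05. Members called between stages numbered 6 to 9 with 1 library left out. With edgeR's robust estimation off, an alternative added after seeing the data, the members called were 7 between stages and 0 in each comparison of types, and 7800, 26 and 0 genes were called between stages, at MII and at GV.

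Over all genes, limma called 1 between the GV types with a pseudocount of 0.1 and 5 with no filter, and an unadjusted p with at least 1.5-fold gave 162. For the MII types the 28 calls became 217 by DESeq2, 57 with no filter, 3 with the replicate block, 2, 2 and 5 by limma (pseudocount 1, 0.1, no filter), 74 with all 13 libraries in 1 fit, 715 at an unadjusted p with at least 1.5-fold, and 3 to 240 with 1 library left out, the most without the third NSN-MII library. For the interaction the 2 calls became 39 by DESeq2, 6 with no filter, 1, 1 and 4 by limma, 596 at an unadjusted p with at least 1.5-fold (1 member), and 0 to 12 with 1 library left out. The causes of these shifts were not tested.

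Deviations from the group mean correlated at −0.437 to 0.206 between oocytes with the same replicate number. Between oocytes with other numbers the correlations were −0.1989 to 0.3745. Deviations within such small groups cannot show whether the numbers pair the oocytes, and the labels do not say. With the replicate block 6 members were called between stages, and Actr3 (adjusted p = 0.0541), Rac1 in SN oocytes (adjusted p = 0.0857) and Cfl1 at MII (adjusted p = 0.18) were not. In implied length, Rab11a between stages was called in all 15 alternatives, and Myo5b in all but the block (adjusted p = 0.0503). Counts of 3 to 11 for Spire2 in SN-MII oocytes limit any fold there.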
